A study of Mus musculus with 24 samples.

Results

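The 19 replication-dependent histone genes described here are members of the mouse gene clusters that encode the linker histone H1 and the core histones H2A, H2B, H3 and H4. They were chosen as protein-coding genes whose GENCODE symbol on GRCm38 starts with Hist1h, Hist2h, Hist3h or Hist4h and whose normalized count was at least 10 in 6 or more of the 24 libraries. Of 67 such protein-coding genes listed in the table, 19 passed and 48 did not, among 55487 genes listed and 14541 genes that passed the same filter on low values. The 19 comprised 3 H1, 2 H2A, 10 H2B, 2 H3 and 2 H4 genes. Of these, 14 lay in the Hist1 cluster on chromosome 13, 4 in the Hist2 cluster on chromosome 3, and Hist3h2a on chromosome 11.

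The RNA came from myotubes of C2C12, a mouse myoblast line that fuses into contractile myotubes when serum is withdrawn, and the genotype label was WT in all libraries. All cultures were at day 5 and were kept for 2 h at 5 % or 1 % O2. Cultures were left unstimulated or were electrically stimulated, which gave 5 % CTRL, 1 % CTRL, 5 % STIM and 1 % STIM with 6 libraries each. In the paper the 2 h exposure came before stimulation in short bouts, and the RNA was taken immediately after it. The medium was replaced before and after stimulation, and whether unstimulated cultures had the same changes is not stated. The model is 1 cell line in culture, without nerve or blood supply, and its myotube cultures can retain mononucleated cells. Each library held between 26541858 and 28173745 reads, and the values are gene counts divided by a size factor per library, called normalized counts below.

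Replication-dependent histone genes supply the histones that package newly copied DNA, and in cycling cells their mRNAs accumulate in S phase. Their transcripts normally end shortly after a conserved 3′ stem-loop that is bound by the stem-loop binding protein SLBP, and they carry no poly(A) tail. Some of these genes are also read past the stem-loop into a downstream poly(A) signal in differentiated cells, and those transcripts are kept by a protocol that selects polyadenylated mRNA. The libraries here were made by such a selection, so the values cover the polyadenylated transcripts and what else was carried along, and the level of stem-loop-ended histone mRNA was not measured.

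The annotation was searched for the 3′ stem-loop after the stop codon of every transcript of the 67 genes. It was found in 13 of the 19 genes described here and in 33 of the 48 others, compared with a match anywhere in a transcript in 0.11 % of 21884 other protein-coding genes. The stem-loops of the genes that carry most of the results follow, 5′ to 3′ as DNA from the GENCODE transcripts, with the stem-loop in capitals and the flanking bases in lower case.
Hist1h1c: caaaaGGCTCTTTTCAGAGCCaccactccc
Hist1h1d: caaacGGCTCTTTTCAGAGCCacccacaac
Hist1h1e: ccaaaGGCTCTTTTCAGAGCCacccacaac
Hist1h2be: ccaaaGGCTCTTTTCAGAGCCacccaacag
Hist1h4i: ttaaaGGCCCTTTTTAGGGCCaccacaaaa
Hist2h4: ctaacGGCCCTTTTTAGGGCCaaccacagt
The 3 linker histone genes and Hist1h2be shared 1 stem-loop sequence, which was also that of most of the genes here (10 of 13). Both H4 genes carried another one, which none of the 33 other genes had. In Hist1h1c the stem-loop lay at chr13:23739512-23739527 (GRCm38, plus strand), 24 bases after the stop codon, and the annotated exon ran on for 840 bases past it. Across the 13 genes the annotated transcript continued for 30 to 4884 bases past the stem-loop, with a median of 1153 bases, and 8 of them held AATAAA or ATTAAA in that stretch. Across the 33 others it continued for 3 to 2445 bases with a median of 46, and 9 held such a signal. The annotation is built from sequenced transcripts of many tissues, so the comparison describes gene models and not the 3′ ends in these cells. The 6 genes without a stem-loop in their models were Hist1h2bc, Hist1h2bl, Hist1h2bq, Hist1h2br, Hist2h2bb and Hist2h2be, of which Hist1h2bl and Hist2h2bb are annotated as a coding sequence alone (381 bases).

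**Figure D1:**
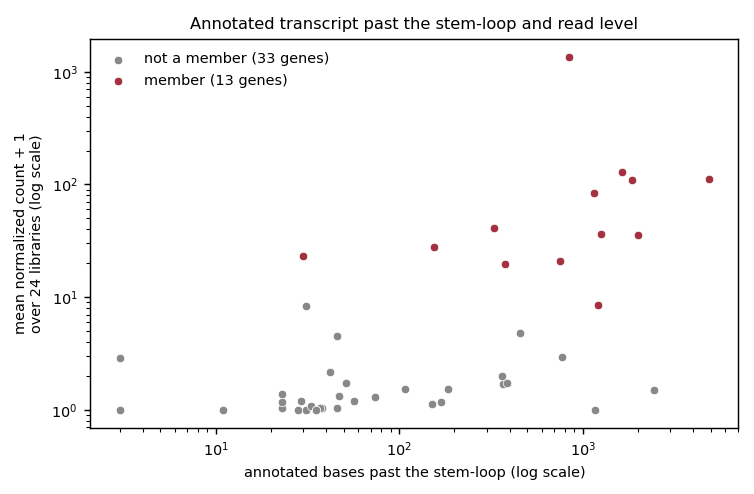
Annotated bases past the stem-loop (x axis, log scale) against the mean normalized count plus 1 over the 24 libraries (y axis, log scale), with 1 point for each of the 13 genes described here (red) and the 33 other histone genes (grey) that have an annotated stem-loop. The red points lie above the grey ones because the choice of genes used the level. Of the red genes 12 had over 100 annotated bases past the stem-loop, and of the grey genes 11.

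RefSeq promoter windows (GRCm38.p6, from 250 bases before to 50 bases after the transcription start) were matched to 16 of the 19 genes by symbol or synonym. The windows of the 3 H1 genes are shown because all 3 genes rose with stimulation, with CCAAT, the element AAACACA known from H1 promoters, and the TATA box TATAAA on the strand of the gene in capitals. They lie at chr13:23738557-23738856 (Hist1h1c, plus strand), chr13:23622509-23622808 (Hist1h1e, minus strand) and chr13:23554782-23555081 (Hist1h1d, plus strand). The Hist1h1d window follows the RefSeq start and lies inside the GENCODE exon of that gene (chr13:23553262-23560686), which starts further upstream.
Hist1h1c: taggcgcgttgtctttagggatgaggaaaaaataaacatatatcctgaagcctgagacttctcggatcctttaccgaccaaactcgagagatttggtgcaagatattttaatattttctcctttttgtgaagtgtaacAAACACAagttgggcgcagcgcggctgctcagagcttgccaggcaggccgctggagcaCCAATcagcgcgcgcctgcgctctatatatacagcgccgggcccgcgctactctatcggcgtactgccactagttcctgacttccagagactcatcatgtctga
Hist1h1e: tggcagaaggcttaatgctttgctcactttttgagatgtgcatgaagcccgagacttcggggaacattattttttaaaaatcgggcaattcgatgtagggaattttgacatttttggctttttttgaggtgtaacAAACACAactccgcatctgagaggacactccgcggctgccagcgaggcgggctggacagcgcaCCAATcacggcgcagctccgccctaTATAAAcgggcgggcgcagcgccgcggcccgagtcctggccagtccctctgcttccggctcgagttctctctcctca
Hist1h1d: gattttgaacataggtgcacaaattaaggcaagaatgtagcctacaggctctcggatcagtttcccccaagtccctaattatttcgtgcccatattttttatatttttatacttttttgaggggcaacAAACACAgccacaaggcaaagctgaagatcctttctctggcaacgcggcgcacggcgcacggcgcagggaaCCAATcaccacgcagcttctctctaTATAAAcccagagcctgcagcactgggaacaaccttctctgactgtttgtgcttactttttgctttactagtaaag
Each H1 window held CCAAT and AAACACA, in the same order and on the strand of the gene. On either strand, AAACACA was found in 7.18 % and CCAAT in 37.4 % of 32851 mouse promoter windows of this length, and in 3 and 15 of the 16 matched windows here. Of the 3 H1 genes that did not pass the filter, AAACACA was in 2 and CCAAT in 3. Of 46 matched histone genes that did not pass, 6 held AAACACA and 38 held CCAAT. These elements were thus not limited to the genes described here. TATAAA lay close to the RefSeq start in Hist1h1d and Hist1h1e and was not in the window of Hist1h1c, and on either strand it was in 13.6 % of all windows. It was in 7 of the 16 windows here and in 28 of the 46 histone genes that did not pass. The octamer ATTTGCAT, known from H2B promoters, was found in 4 of 8 matched H2B genes and in both H2A genes, against 1.74 % of all windows. Among genes that did not pass it was in 3 of 8 H2B and 5 of 16 H2A genes. The cores ACGTG and GCGTG, which are part of hypoxia response elements, were searched on both strands and were in 19.6 % and 32.4 % of all windows. Neither was in the windows of Hist1h1c or Hist1h1e, and GCGTG was in that of Hist1h1d. These are matches of letters and do not show binding.

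Levels per annotated length differed widely among the 19 genes. Hist1h1c was highest with 864 normalized counts per kb of exon, followed by Hist1h2bc with 407, Hist1h2bl with 155 and Hist2h2bb with 81.0, and Hist1h2bh was lowest with 4.48. This order depends on the gene models. Hist1h2bl and Hist2h2bb, with models of 381 bases, ranked 8 and 12 by mean normalized count (59.2 and 30.9). Hist1h1d, with a model of 7425 bases, ranked 4 by count (110) and 15 per kb. Hist1h1c alone made up 51.1 % of the summed normalized counts of the group and Hist1h2bc 17.8 %. In 11 of the 19 genes every library was at or above 10. The filter acted on low values, and 18 genes would have passed it without the libraries of their highest group. Hist1h2bh was just inside it, with 7 libraries at or above 10 and a mean of 7.52, and reached the filter through its highest group. Hist1h4n was just outside, with 4 libraries and a mean of 7.28. No gene was highest in unstimulated cultures: the highest mean was in 5 % STIM for 11 genes and in 1 % STIM for 8, and the lowest mean was in 5 % CTRL for 13 and in 1 % CTRL for 6. The 11 include Hist1h2bh, which passed the filter through its 5 % STIM libraries. The shares of all genes with their highest or lowest mean in each group were not counted.

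Stimulation was followed by higher counts of all 3 linker histone genes at both O2 levels, and Hist1h1c and Hist1h1e also rose in hypoxia. H1 binds the DNA between nucleosomes and compacts chromatin. Hist1h1c (ENSMUSG00000036181, encoding H1.2) had normalized counts of 482 to 590 in 5 % CTRL (median 540), 1278 to 1539 in 1 % CTRL (median 1407), 960 to 1169 in 5 % STIM (median 1141) and 2222 to 2531 in 1 % STIM (median 2292). No 2 of these groups overlapped. The means were 537 ± 41.7, 1422 ± 93.6, 1096 ± 91.9 and 2338 ± 125 (SD, n = 6 each). On the log2(normalized count + 1) scale, Hist1h1c rose by 1.40 ± 0.05 (SE) with hypoxia at rest (limma adjusted p = 2.19e-20) and by 1.09 ± 0.05 with hypoxia in stimulated myotubes (limma adjusted p = 1.82e-17). It rose by 1.03 ± 0.05 with stimulation at 5 % O2 (limma adjusted p = 8.74e-16) and by 0.72 ± 0.05 with stimulation at 1 % O2 (limma adjusted p = 3.62e-12). The combined level was thus below the product of the single changes, with an interaction of -0.31 ± 0.08 (limma adjusted p = 0.00700).

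Hist1h1e (H1.4) followed the same order of groups at a lower level. Its normalized counts were 22.8 to 34.8 in 5 % CTRL (median 26.2), 60.4 to 94.1 in 1 % CTRL (median 82.2), 61.9 to 108 in 5 % STIM (median 75.1) and 120 to 165 in 1 % STIM (median 143). The 1 % CTRL and 5 % STIM libraries overlapped each other and were above all 5 % CTRL and below all 1 % STIM libraries. Hist1h1e rose by 1.53 ± 0.13 on the log2 scale with hypoxia at rest (limma adjusted p = 3.06e-12) and by 1.47 ± 0.13 with stimulation at 5 % O2 (limma adjusted p = 8.68e-11). The changes were 0.86 ± 0.13 with hypoxia in stimulated myotubes (limma adjusted p = 8.06e-07) and 0.80 ± 0.13 with stimulation at 1 % O2 (limma adjusted p = 1.40e-05), and the interaction was -0.67 ± 0.18 (limma adjusted p = 0.0145). Its exons share 496 bases on the same strand with those of Hist1h2be, so reads from that stretch cannot be told apart.

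Hist1h1d (H1.3) was raised mainly in the stimulated libraries. Its normalized counts were 26.2 to 45.3 in 5 % CTRL (median 34.9), 30.5 to 47.0 in 1 % CTRL (median 38.6), 144 to 178 in 5 % STIM (median 159) and 183 to 235 in 1 % STIM (median 200). The unstimulated groups overlapped, and each stimulated group was above all unstimulated libraries. The means were 4.45-fold higher with stimulation at 5 % O2 (log2 difference 2.14 ± 0.12, limma adjusted p = 4.71e-16) and 5.37-fold higher at 1 % O2 (2.40 ± 0.12, limma adjusted p = 1.42e-17). With hypoxia at rest the log2 difference of 0.12 ± 0.12 was not called (limma adjusted p = 0.406), and in stimulated myotubes Hist1h1d rose by 0.38 ± 0.12 (limma adjusted p = 0.00582). The other 3 listed H1 genes did not pass the filter: Hist1h1a, Hist1h1b and the testis gene Hist1h1t had means of 4.30, 4.02 and 0.535 normalized counts.

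**Figure D2:**
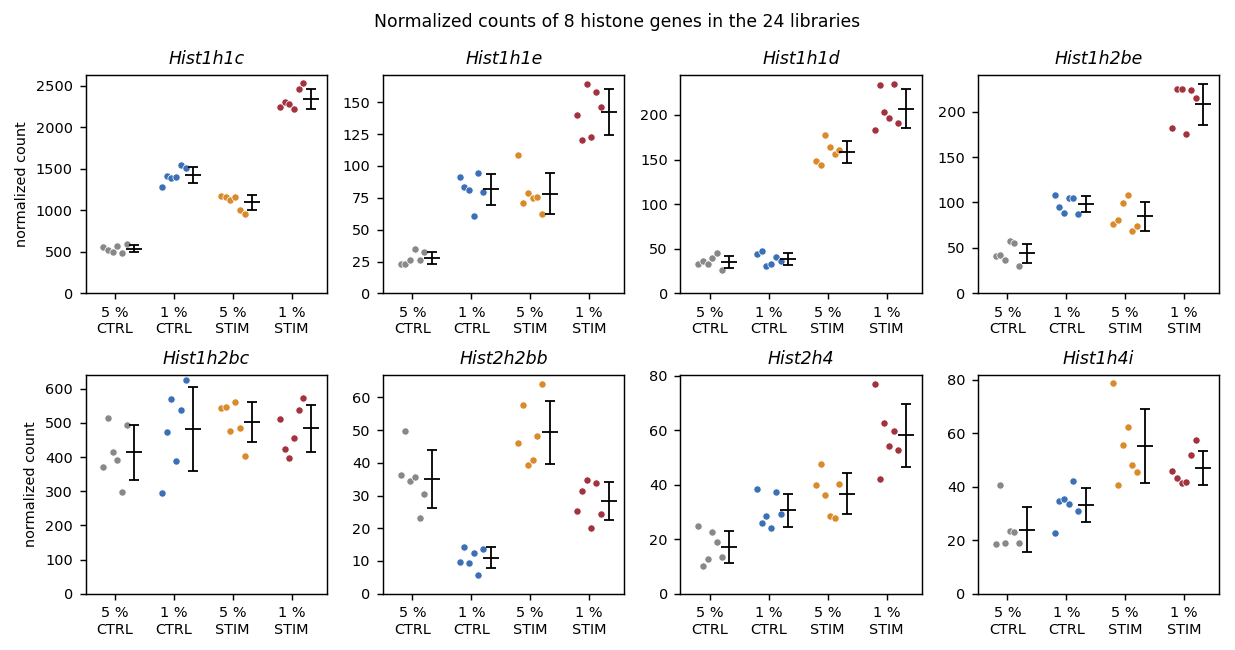
Normalized count (y axis, from 0) of 8 histone genes in each of the 24 libraries, with 6 points per group and the mean ± SD beside them. Hist1h1c, Hist1h1e, Hist1h2be and Hist2h4 have their lowest mean in 5 % CTRL and their highest in 1 % STIM, Hist1h1d separates stimulated from unstimulated libraries, the groups of Hist1h2bc overlap, and Hist2h2bb is lowest in 1 % CTRL.

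H2A and H2B form the dimers of the nucleosome. Hist3h2a, the H2A gene with the highest level, had 81.6 to 120 in 5 % CTRL (median 104), 111 to 134 in 1 % CTRL (median 117), 120 to 158 in 5 % STIM (median 132) and 124 to 179 in 1 % STIM (median 155). The groups compared overlapped, and Hist3h2a rose with stimulation by 0.40 ± 0.10 at 5 % O2 (limma adjusted p = 0.00285) and by 0.35 ± 0.10 at 1 % O2 (limma adjusted p = 0.00909). With hypoxia at rest the log2 difference was 0.22 ± 0.10 (limma adjusted p = 0.0555; 0.23 and limma adjusted p = 0.0478 without replicate 1 of 1 % CTRL). It shares 708 exonic bases with Trim17 on the same strand, whose mean was 19.2 in 5 % CTRL and 43.0 in 1 % STIM. Hist1h2ac rose from 17.9 ± 6.24 in 5 % CTRL to 48.8 ± 11.4 in 5 % STIM, a log2 difference of 1.44 ± 0.20 (limma adjusted p = 1.16e-06), with libraries of 7.33 to 26.2 (median 18.0) and 29.6 to 60.8 (median 53.4) that did not overlap. At 1 % O2 it was 27.6 ± 2.59 without and 44.2 ± 7.12 with stimulation (log2 difference 0.65 ± 0.20, limma adjusted p = 0.0165).

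The 10 H2B genes did not move as 1 group. Hist1h2bc, the most abundant of them, was called in no comparison, with libraries of 297 to 515 in 5 % CTRL (median 402), 294 to 624 in 1 % CTRL (median 507), 405 to 560 in 5 % STIM (median 513) and 399 to 574 in 1 % STIM (median 483). All 4 groups overlapped, and its largest log2 difference was 0.29 ± 0.16 with stimulation at 5 % O2 (limma adjusted p = 0.221). Without replicate 1 of 1 % CTRL, its difference with hypoxia at rest was 0.33 (limma adjusted p = 0.0498). Hist1h2be had 30.4 to 57.3 in 5 % CTRL (median 42.1), 87.2 to 108 in 1 % CTRL (median 99.8), 68.5 to 108 in 5 % STIM (median 78.9) and 175 to 225 in 1 % STIM (median 219). Every 1 % STIM library was above all other libraries. Hist1h2be rose by 1.17 ± 0.13 with hypoxia at rest (limma adjusted p = 1.18e-09) and by 1.29 ± 0.13 with hypoxia in stimulated myotubes (limma adjusted p = 1.41e-10). With stimulation it rose by 0.95 ± 0.13 at 5 % O2 (limma adjusted p = 7.39e-07) and by 1.07 ± 0.13 at 1 % O2 (limma adjusted p = 4.90e-08). Its exons share 496 bases with those of Hist1h1e on the same strand.

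Some H2B genes were lower at 1 % O2. Hist2h2bb had 23.2 to 49.8 in 5 % CTRL (median 35.2), 5.76 to 14.4 in 1 % CTRL (median 11.2), 39.4 to 64.0 in 5 % STIM (median 47.0) and 20.01 to 34.7 in 1 % STIM (median 28.3). The libraries at 1 % O2 were below all libraries at 5 % O2 with the same stimulation. Hist2h2bb fell by 1.61 ± 0.20 on the log2 scale with hypoxia at rest (limma adjusted p = 1.23e-08) and by 0.79 ± 0.20 in stimulated myotubes (limma adjusted p = 0.000902), and with stimulation at 1 % O2 it rose by 1.32 ± 0.20 (limma adjusted p = 3.23e-06). With stimulation at 5 % O2 the Hist2h2bb difference of 0.50 ± 0.20 was not called (limma adjusted p = 0.0699). It was called by edgeR (adjusted p = 0.0421), DESeq2 (adjusted p = 0.0485) and with a pseudocount of 10 (limma adjusted p = 0.0322). Hist2h2bb overlaps the lincRNA Gm42743 on the same strand and the antisense gene Gm20628, and strand was not used in the counting. Gm42743 had means of 67.4, 41.0, 120 and 78.9 normalized counts in 5 % CTRL, 1 % CTRL, 5 % STIM and 1 % STIM, so it also was lowest in 1 % CTRL; its part in the values of Hist2h2bb was not tested. Hist1h2bq reached 33.0 to 76.7 in 5 % STIM (median 50.1), against 0 to 14.3 in 5 % CTRL (median 12.0), and rose by 2.55 ± 0.54 (limma adjusted p = 0.00142), with a ratio of means of 4.97. It was 4.81 to 32.2 in 1 % STIM (median 20.2), with a log2 difference of -1.47 ± 0.54 from 5 % STIM (limma adjusted p = 0.0251). Hist2h2be rose by 0.39 ± 0.13 with stimulation at 5 % O2 (limma adjusted p = 0.0296) and by 0.77 ± 0.13 at 1 % O2 (limma adjusted p = 2.36e-05). It was also higher with hypoxia in stimulated myotubes (0.32 ± 0.13, limma adjusted p = 0.0355), where the libraries did not overlap. That call was lost without the filter (limma adjusted p = 0.0655) and with the length covariate (limma adjusted p = 0.108), and the one at 5 % O2 without the filter (limma adjusted p = 0.0573). The fall of Hist1h2br with hypoxia at rest (-2.03 ± 0.87, limma adjusted p = 0.0498) rested on 14 reads in all in 1 % CTRL, with 4 libraries at 0, and was not called under any of 8 alternatives. Hist1h2bh, the least abundant gene, had 27 reads summed over the 6 libraries of 5 % CTRL and 58 over those of 5 % STIM, the group through which it passed the filter, so this difference is a description. Hist1h2bl, Hist1h2bg and Hist1h2bk were called by limma in no comparison, with group means of 44.5 to 74.5, 14.7 to 50.1 and 12.6 to 30.2 and wide spread within groups. Without replicate 1 of 1 % CTRL, Hist1h2bl was called higher with stimulation at 5 % O2 (0.85, limma adjusted p = 0.0362), and with the length covariate also at 1 % O2 (limma adjusted p = 0.000753). Hist1h2bk was called higher with stimulation at 5 % O2 by edgeR (adjusted p = 0.0336) and DESeq2 (adjusted p = 0.00802), and by DESeq2 with hypoxia at rest (adjusted p = 0.0454). Hist1h2bg was called lower with hypoxia at rest under the length covariate (limma adjusted p = 0.0364) and the replicate block (limma adjusted p = 0.0213), and with hypoxia in stimulated myotubes with a pseudocount of 10 (limma adjusted p = 0.0401).

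H3 and H4 form the central tetramer of the nucleosome. Hist1h3d, with the higher mean of the H3 pair, had 14.2 to 23.5 in 5 % CTRL (median 21.1), 3.84 to 11.5 in 1 % CTRL (median 9.64), 11.4 to 36.3 in 5 % STIM (median 33.1) and 16.2 to 30.2 in 1 % STIM (median 20.4). All 1 % CTRL libraries were below all 5 % CTRL and all 1 % STIM libraries. Hist1h3d fell by 1.14 ± 0.25 with hypoxia at rest (limma adjusted p = 0.000212) and rose by 1.28 ± 0.25 with stimulation at 1 % O2 (limma adjusted p = 0.000199). Hist2h3c2 was called in no comparison, with group means between 17.2 and 20.5. Hist1h4i, the H4 gene with the higher mean, had 18.6 to 40.7 in 5 % CTRL (median 21.0), 22.6 to 42.3 in 1 % CTRL (median 34.0), 40.6 to 78.6 in 5 % STIM (median 51.8) and 41.4 to 57.5 in 1 % STIM (median 44.4). It rose by 1.19 ± 0.18 with stimulation at 5 % O2 (limma adjusted p = 3.97e-06), by 0.49 ± 0.18 with hypoxia at rest (limma adjusted p = 0.0181) and by 0.50 ± 0.18 with stimulation at 1 % O2 (limma adjusted p = 0.0391). Without replicate 1 of 1 % CTRL the last difference was 0.40 (limma adjusted p = 0.0993). That call was also lost without the filter (limma adjusted p = 0.0724) and with the replicate block (limma adjusted p = 0.0551). Hist2h4 had means of 17.1 ± 5.91, 30.6 ± 6.0, 36.7 ± 7.62 and 58.1 ± 11.6 in 5 % CTRL, 1 % CTRL, 5 % STIM and 1 % STIM, and was called higher in all 4 pairwise comparisons. Its log2 differences were 0.84 ± 0.19 with hypoxia at rest (limma adjusted p = 0.000277) and 1.10 ± 0.19 with stimulation at 5 % O2 (limma adjusted p = 4.67e-05). They were 0.65 ± 0.19 with hypoxia in stimulated myotubes (limma adjusted p = 0.00411) and 0.90 ± 0.19 with stimulation at 1 % O2 (limma adjusted p = 0.000498).

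With stimulation at 5 % O2, 11 of the 19 genes were called higher and 0 lower, where 21.4 % of all 14541 genes were called, 9.44 % higher and 12.0 % lower. The 19 log2 differences were all above 0, from 0.03 to 2.55 with a median of 1.03, beside a median of -0.01 over all genes, and 14 had an unadjusted p under 0.05. The 11 and the median include Hist1h2bh, which passed the filter through its 5 % STIM libraries, and without it 10 of 18 were called higher, with a median of 1.01. Both edgeR and DESeq2 called 13 higher and 0 lower. With stimulation at 1 % O2, 11 genes were called higher and 0 lower, against 22.3 % of all genes, 11.5 % higher and 10.8 % lower, with a median of 0.77 beside 0.00 over all genes. Here 13 had an unadjusted p under 0.05, and both edgeR and DESeq2 called 12 higher and 0 lower. At 5 % O2 the stimulated libraries were all above the unstimulated ones in 7 of the 19 genes and all below in 0, against 5.64 % and 5.44 % of all genes. At 1 % O2 they were all above in 9 and all below in 0, against 5.29 % and 5.91 %. At both O2 levels, 9 genes were called higher with stimulation, and the share of all genes called so at both was not counted.

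The oxygen comparisons gave calls in both directions. With hypoxia at rest, 6 genes were called higher and 3 lower, where 59.9 % of all genes were called, 29.4 % higher and 30.5 % lower. With hypoxia in stimulated myotubes 6 were higher and 2 lower, where 57.4 % of all genes were called, 29.0 % higher and 28.4 % lower. The shares called higher were near those of all genes, and the shares called lower were below them. The libraries did not overlap in 3 genes that were higher and 2 lower at rest, against 18.2 % and 19.9 % of all genes, and in 5 higher and 2 lower in stimulated myotubes, against 18.7 % each. The medians were 0.21 and -0.12, beside 0.00 over all genes in both, and the second was 0.11 with a covariate for the dependence of levels on gene length. The genes called higher in both oxygen comparisons were Hist1h1c, Hist1h1e, Hist1h2be and Hist2h4, the same 4 that were called higher in all pairwise comparisons. Hist1h1e and Hist1h2be share 496 exonic bases on the same strand, so their values are not fully separate. The share of all genes that met these joint conditions was not counted. In the interaction 0 genes were called positive and 2 negative, where 11.3 % of all genes were called, 5.88 % positive and 5.43 % negative, and 7 of the 19 had an unadjusted p under 0.05. Both edgeR and DESeq2 called 1 positive and 2 negative. The comparisons share libraries, so their counts are not independent.

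**Figure D3:**
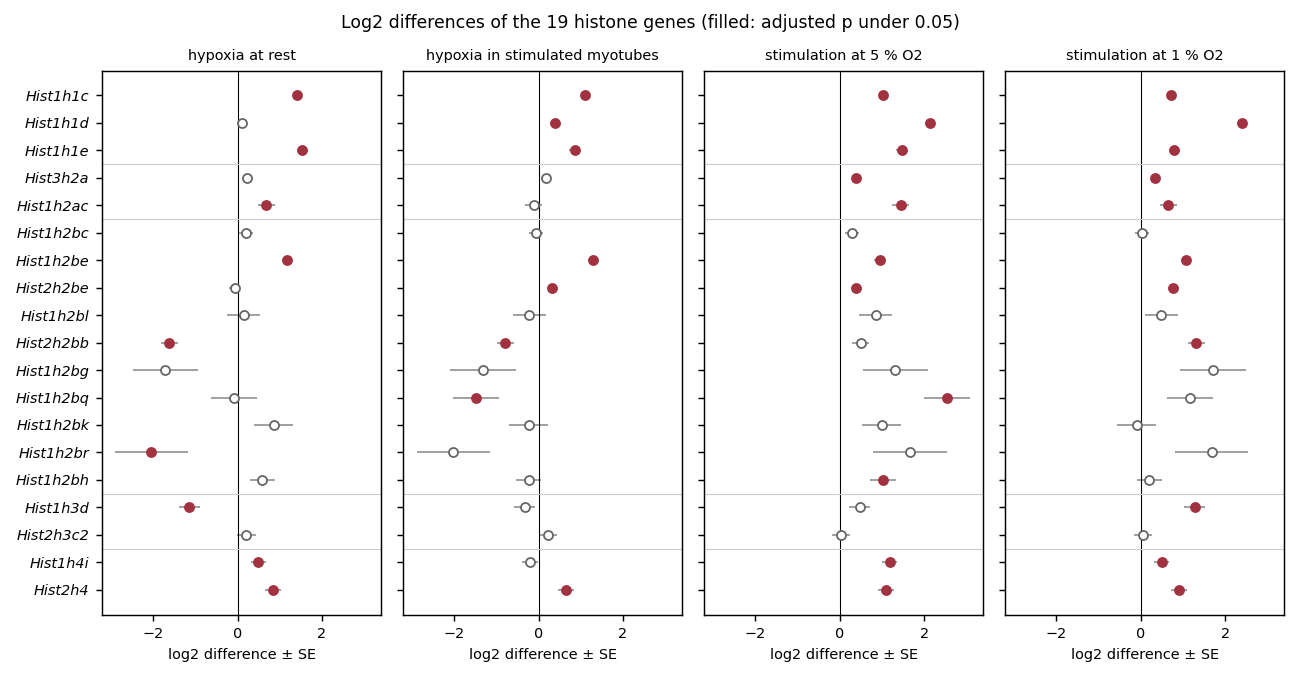
Log2 difference (x axis, ± SE) of each of the 19 histone genes, ordered by class from H1 to H4, in the 2 hypoxia comparisons and the 2 stimulation comparisons; filled points have a limma adjusted p under 0.05. In the stimulation panels no filled point lies below 0, and in the hypoxia panels filled points lie on both sides.

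Summed by class, the H1 counts were higher in every pairwise comparison, 2.57-fold with hypoxia at rest and 2.22-fold with stimulation at 5 % O2, where the H4 sum was 2.23-fold higher. Without stimulation the H1 sum was 601 ± 41.2 at 5 % O2 and 1542 ± 94.5 at 1 % O2, and with stimulation it was 1333 ± 99.5 and 2687 ± 140 (SD, n = 6 each), and no group overlapped one it was compared with. H1 made up 41.7 % ± 2.60 of the summed counts of the 19 genes in 5 % CTRL and 61.2 % ± 2.44 in 1 % CTRL, and with stimulation 51.3 % ± 0.840 and 67.5 % ± 1.22. The H2A sum was 121 ± 13.1, 148 ± 9.44, 185 ± 22.7 and 197 ± 13.4 in the same order. The H2B sum was 645 ± 96.6, 745 ± 126, 944 ± 90.6 and 950 ± 96.2, and its groups overlapped in every comparison but stimulation at 5 % O2. The H4 sum was 41.1 ± 7.68, 63.8 ± 8.07, 91.8 ± 14.3 and 105 ± 13.1, and the H3 sum 36.9 ± 6.36, 28.9 ± 4.83, 46.5 ± 11.2 and 42.6 ± 8.11. The sum over all 19 genes was 1445 ± 128, 2527 ± 223, 2601 ± 219 and 3982 ± 237. Without Hist1h1c it was 907 ± 101, 1105 ± 135, 1504 ± 128 and 1644 ± 121, and the groups then overlapped in both hypoxia comparisons and in neither stimulation comparison. These sums were not tested.

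**Figure D4:**
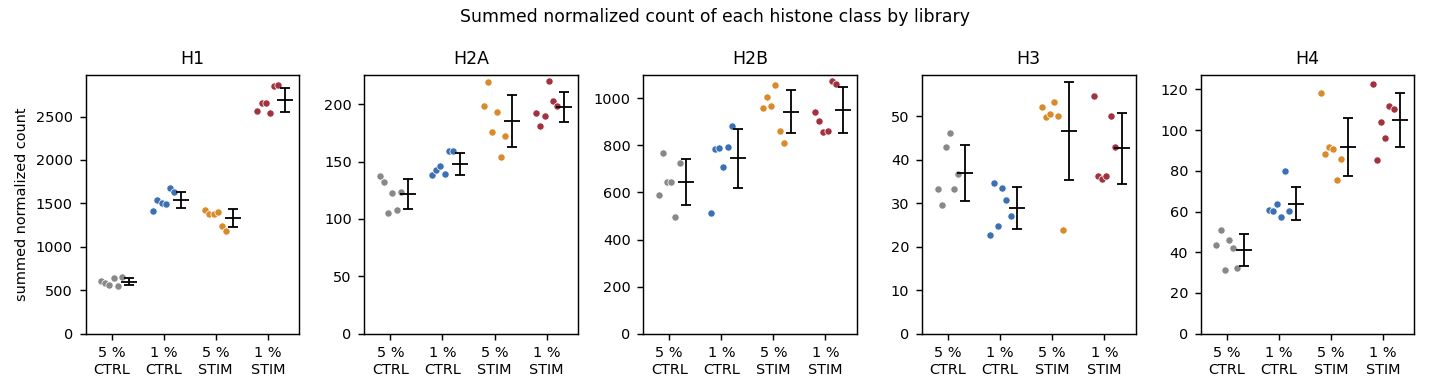
Summed normalized count (y axis, from 0) of the genes of each histone class in each of the 24 libraries, with 6 points per group and the mean ± SD beside them. H1 separates the groups that differ in 1 factor, while the H2B sum of 1 % CTRL overlaps that of 5 % CTRL and the H3 sum has 1 library of 5 % STIM at 23.7, below the other 5.

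Histone genes share sequence, which limits how reads are assigned. The share of a gene's 75-base words that occur in another gene was 27.1 % at the median over the 19 genes and 52.9 % over the 48 others, and it was above 50 % in 6 of 19 and 25 of 48. It was lowest in Hist2h2be and Hist2h4 (0 %), Hist1h1d (1.47 %) and Hist1h1c (6.66 %). It was highest in Hist2h2bb (100 %), Hist1h2bq (96.1 %), Hist1h2br (87.6 %), Hist1h2bl (73.3 %), Hist1h2bk (72.6 %) and Hist2h3c2 (62.6 %). Words of 75 bases are shorter than the reads. With words of 150 bases the share was 29.7 % in Hist1h2bl and 0 % in Hist1h1c. It stayed above 50 % in Hist2h2bb (100 %), Hist1h2bq (92.4 %), Hist1h2br (84.2 %), Hist1h2bk (60.9 %) and Hist2h3c2 (59.4 %). The coefficient of variation within a group had a median of 36.6 % in the 6 genes above 50 % at 75 bases and 18.6 % in the other 13. The 6 also had low levels, with means over the 24 libraries of 12.2 (Hist1h2br) to 59.2 (Hist1h2bl). The 13 ranged from 7.52 (Hist1h2bh) to 1348 (Hist1h1c). Low counts vary more, so level and shared sequence cannot be told apart in this spread. Among the 13, stimulation at 5 % O2 gave 10 calls (9 of 12 without Hist1h2bh) and stimulation at 1 % O2 gave 10, all higher, and hypoxia gave 6 higher and 1 lower at rest and 6 higher and 0 lower in stimulated myotubes. Of all genes, 9.44 % and 11.5 % were called higher with stimulation at 5 % and 1 % O2. With hypoxia 29.4 % were higher and 30.5 % lower at rest, and 29.0 % and 28.4 % in stimulated myotubes. The share of the 13 called either way with hypoxia at rest was near the 59.9 % of all genes. The values of the 6 are uncertain as values of single genes, and for Hist1h2bl a share above 50 % rests on the 75-base words.

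Factors that act on histone transcripts were listed beside the histone genes. Of 19 genes for histone mRNA processing and transcription, 15 were called higher and 3 lower with hypoxia at rest, and 12 higher and 2 lower with hypoxia in stimulated myotubes. With stimulation 0 were higher and 5 lower at 5 % O2, and 1 was higher and 4 lower at 1 % O2. Of all genes, 59.9 % and 57.4 % were called in the hypoxia comparisons and 21.4 % and 22.3 % in the stimulation comparisons. Slbp, the stem-loop binding protein, had 477 to 559 in 5 % CTRL (median 519), 825 to 912 in 1 % CTRL (median 893), 429 to 550 in 5 % STIM (median 469) and 668 to 767 in 1 % STIM (median 721). It rose by 0.75 ± 0.05 with hypoxia at rest (limma adjusted p = 2.64e-14) and fell by 0.29 ± 0.05 with stimulation at 1 % O2 (limma adjusted p = 8.40e-05), where the 2 groups did not overlap. Npat, the coactivator of histone gene transcription, rose by 0.30 ± 0.05 with hypoxia at rest (limma adjusted p = 2.00e-05) and differed by 0.05 ± 0.05 with stimulation at 5 % O2 (limma adjusted p = 0.616). Casp8ap2, another histone locus factor, rose by 0.23 ± 0.05 with hypoxia at rest (limma adjusted p = 0.000286). Lsm11, a subunit of the U7 particle that takes part in 3′ end cleavage, rose by 0.45 ± 0.07 with hypoxia at rest (limma adjusted p = 4.24e-07) and fell by 0.23 ± 0.07 with stimulation at 1 % O2 (limma adjusted p = 0.00840). Tut4, a terminal uridylyltransferase, rose by 0.69 ± 0.05 with hypoxia in stimulated myotubes (limma adjusted p = 8.97e-14), and Upf1, an RNA helicase of mRNA decay, fell by 0.16 ± 0.04 with stimulation at 5 % O2 (limma adjusted p = 0.00295).

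Genes of S phase were set beside the histone genes. Of 32 such genes, 30 were called higher and 2 lower with hypoxia at rest (median log2 difference 1.10), and 29 higher and 2 lower with hypoxia in stimulated myotubes (median 0.83). With stimulation at 5 % O2, 1 was higher and 2 lower (median 0.00), and at 1 % O2 1 was higher and 26 lower (median -0.29). Of all genes, 29.4 % were called higher and 30.5 % lower with hypoxia at rest, and 29.0 % and 28.4 % in stimulated myotubes. The shares of all genes with stimulation were 9.44 % higher and 12.0 % lower at 5 % O2, and 11.5 % and 10.8 % at 1 % O2. Cdc6, which loads the replicative helicase, was raised from 51.9 to 88.0 in 5 % CTRL (median 78.2) to 580 to 788 in 1 % CTRL (median 599.8), by 3.06 ± 0.10 (limma adjusted p = 1.32e-22), and differed by -0.16 ± 0.10 with stimulation at 5 % O2 (limma adjusted p = 0.310). Ccne2, the cyclin E2 of S-phase entry, had means of 315 ± 29.1, 1109 ± 124, 292 ± 43.3 and 687 ± 64.4 in 5 % CTRL, 1 % CTRL, 5 % STIM and 1 % STIM. It rose by 1.81 ± 0.09 with hypoxia at rest (limma adjusted p = 2.26e-16) and fell by 0.69 ± 0.09 with stimulation at 1 % O2 (limma adjusted p = 5.01e-07), the comparison in which Hist1h1c rose by 0.72. Pcna, the sliding clamp of replication, rose by 0.38 ± 0.03 with hypoxia at rest (limma adjusted p = 7.92e-12) and differed by 0.00 ± 0.03 with stimulation at 5 % O2 (limma adjusted p = 0.956). Mki67, a marker of cycling cells, was called in no comparison, with libraries of 1132 to 1400 in 5 % CTRL and 1264 to 1460 in 5 % STIM. The difference between the lists in these changes was not tested.

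**Figure D5:**
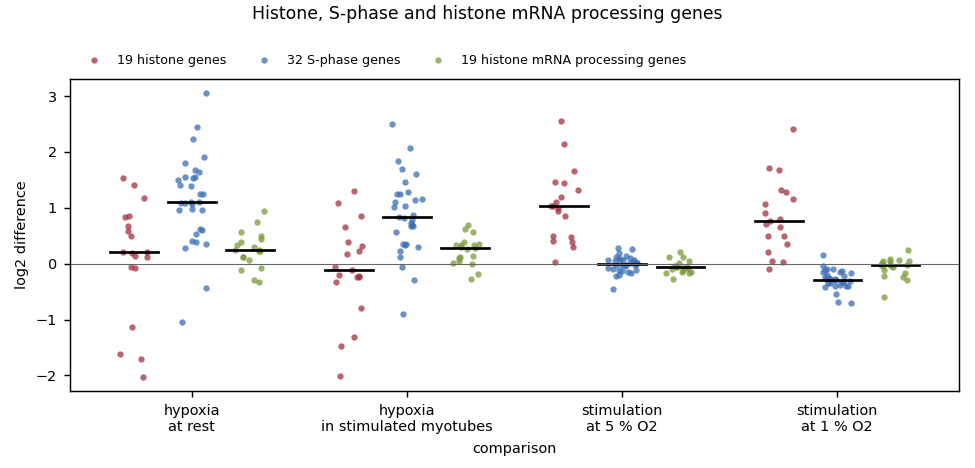
Log2 difference (y axis) of each of the 19 histone genes (red), 32 S-phase genes (blue) and 19 histone mRNA processing genes (green) in the 2 hypoxia and the 2 stimulation comparisons, with the median of each list as a black bar. With stimulation at 5 % O2 the medians are 1.03 for the histone genes, 0.00 for the S-phase genes and -0.06 for the processing genes.

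Histone genes that are expressed outside S phase were listed as well. Of 11 replication-independent histone genes, 2 were called higher and 3 lower with hypoxia at rest, 3 higher and 4 lower with hypoxia in stimulated myotubes, 0 higher and 2 lower with stimulation at 5 % O2, and 0 either way at 1 % O2 by limma, where 1 had an unadjusted p under 0.05. H1f0, the linker histone of differentiated cells, had means of 2899 ± 95.5, 3886 ± 159, 2696 ± 135 and 4071 ± 155 in 5 % CTRL, 1 % CTRL, 5 % STIM and 1 % STIM. It rose by 0.42 ± 0.03 with hypoxia at rest (limma adjusted p = 9.18e-13) and differed by -0.11 ± 0.03 with stimulation at 5 % O2 (limma adjusted p = 0.0240). Of 19 histone chaperone genes, 9 were higher and 3 lower with hypoxia at rest, 10 and 2 with hypoxia in stimulated myotubes, 0 and 2 with stimulation at 5 % O2, and 1 and 5 at 1 % O2. The 12 of 19 called in each hypoxia comparison were near the shares of all genes, 59.9 % and 57.4 %. With stimulation, 21.4 % of all genes were called at 5 % O2 and 22.3 % at 1 % O2.

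The cell types in the cultures were followed by marker lists. The summed level of 11 myotube markers was 504510 to 553211 in 5 % CTRL and 447366 to 482365 in 1 % STIM, with 6 of 11 called lower with hypoxia at rest and 3 of 11 with stimulation at 5 % O2. Of 10 proliferation markers, 5 were higher and 2 lower with hypoxia at rest, and 2 were higher and 0 lower with stimulation at 5 % O2, and their sum was 4008 to 4635 in 5 % CTRL, 4634 to 7078 in 1 % CTRL, 4554 to 5361 in 5 % STIM and 4703 to 6177 in 1 % STIM. Of 7 myoblast markers, 2 were higher and 3 lower with hypoxia at rest and 2 higher and 1 lower with stimulation at 5 % O2. Of all genes, 59.9 % were called with hypoxia at rest, 29.4 % higher and 30.5 % lower. With stimulation at 5 % O2, 21.4 % of all genes were called, 9.44 % higher and 12.0 % lower. None of the markers was at 0 throughout, and their part in the histone values was not tested. In bulk RNA a change in the number of such cells and a change in RNA per cell cannot be told apart. Replicate 1 of 1 % CTRL had the highest summed proliferation markers (7078) and a slope of log2 level on log2 exon length of 1.00, compared with 0.872 to 0.896 in the other 5 libraries of its group. Without it, 9 histone genes were called higher and 2 lower with hypoxia at rest, and 10 higher and 0 lower with stimulation at 1 % O2.

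By likeness of pattern over the 24 libraries, the 5 genes outside the group that followed the mean standardised log2 level of the 19 genes most closely were Sesn2 (Pearson r = 0.934), Ypel3 (0.929), Ankrd33b (0.925), Ubald2 (0.924) and Art1 (0.924). The libraries form 4 groups, so these coefficients describe mostly the order of the groups and carry no test. Sesn2, for example, had means of 535 ± 38.0, 653 ± 46.9, 979 ± 42.8 and 1117 ± 104 in 5 % CTRL, 1 % CTRL, 5 % STIM and 1 % STIM.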

How the data were processed

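Polyadenylated RNA of 24 C2C12 myotube cultures was sequenced by the authors, who aligned single-end reads to GRCm38 with STAR 2.5.4b and counted genes with RSEM 1.3.0 at default settings, which do not use strand (versions per the labels). Their deposited signal values are gene-level counts from RSEM scaled by 1 DESeq2 size factor per library, and how reads shared between genes were divided was not examined. Values were whole multiples of 1 count for 100 % of entries, within 0.001, so the whole counts per library, called reads here, could be recovered. A second deposited table holds the authors' own comparisons and was not used.

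Groups followed the sample labels. Values were tested as log2(normalized count + 1) with limma 3.58.1 (trend and robust moderation, 1 fit over the 4 groups) on the 14541 genes at or above 10 in at least 6 libraries, with Benjamini-Hochberg adjustment over all of them, and were called at an adjusted p under 0.05. Folds are ratios of group means, and log2 differences of low counts can be smaller or, where libraries were at or near 0, larger than these ratios. Alternatives were omission of the filter, a pseudocount of 10, the replicate number as a block, libraries rescaled to the same total, edgeR 4.0.16 (quasi-likelihood, TMM) and DESeq2 1.42.0 on recovered reads, a covariate for the length slope, the omission of replicate 1 of 1 % CTRL, and a threshold of 0.01. The scripts were tested on simulated data. The methods call the 6 libraries of a group biological replicates, and the labels do not say whether they came from separate differentiations, so p-values measure the spread between these libraries.

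Gene models came from GENCODE M21, promoters from RefSeq. The genes and lists were chosen with earlier results of these data known. Full statistics are given for the most abundant gene of each class and for up to 2 called genes with the largest change, and for genes of the other lists by size of change or because they were fixed as Slbp, Npat, Casp8ap2, Lsm11, Mki67, Pcna and Ccne2. Further statistics were added after their values were seen.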

Additional observations from a re-analysis of the deposited data

Results flagged for a closer look

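In 100 groups of 6 libraries examined for a single library apart from the rest, 7 were found, and chance gives about 1 in 20. Replicate 1 of 5 % STIM was highest for Hist1h1e (108, the others up to 78.7). Replicate 1 of 1 % CTRL was lowest for Hist1h2bl (10.8, the others from 49.0). Replicate 2 of 5 % CTRL was lowest for Hist1h2bq (0, the others from 10.4) and highest for Hist1h4i (40.7, the others up to 23.5). Replicate 6 of 5 % STIM was lowest for Hist1h3d (11.4, the others from 27.6) and for the summed H3 genes (23.7, the others from 49.7). Replicate 5 of 1 % CTRL was highest for the summed H4 genes (79.7, the others up to 63.8).

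The effect of stimulation differed between 5 % and 1 % O2 for 2 genes by the limma interaction test. The interaction was -0.31 on the log2 scale for Hist1h1c (limma adjusted p = 0.00700) and -0.67 for Hist1h1e (limma adjusted p = 0.0145). Both genes rose with stimulation at either O2 level, and less at 1 % O2 on the log2 scale. This does not hold for the plain difference of counts: the Hist1h1c means went from 537 to 1096 at 5 % O2 and from 1422 to 2338 at 1 % O2. Hist2h2bb had an interaction of the other sign, 0.82 ± 0.28, not called (limma adjusted p = 0.0516). It was called with the replicate block (limma adjusted p = 0.0426), the length covariate (0.0395) and without replicate 1 of 1 % CTRL (0.0498). edgeR (adjusted p = 0.0440) and DESeq2 (0.0429) also called it. Hist1h4i was called negative without that replicate (limma adjusted p = 0.0235).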

How the results depend on the processing

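The number of histone genes called ranged over the 9 alternatives from 7 to 11 with hypoxia at rest, from 9 to 13 with stimulation at 5 % O2, from 6 to 10 with hypoxia in stimulated myotubes and from 9 to 12 with stimulation at 1 % O2. The interaction count of 2 became 4 without replicate 1 of 1 % CTRL and 1 at a threshold of 0.01. The median log2 difference with hypoxia in stimulated myotubes, -0.12, reversed to 0.11 with the length slope as covariate, and that with stimulation at 5 % O2 fell from 1.03 to 0.80 with a pseudocount of 10. Without the most abundant gene of each class the ratio of summed counts was 1.33 with hypoxia at rest (1.75 with all genes), 2.25 with stimulation at 5 % O2 (1.80), 1.20 with hypoxia in stimulated myotubes (1.53) and 2.03 with stimulation at 1 % O2 (1.58). Of the other lists, the S-phase genes called with stimulation at 5 % O2 went from 3 to 5 with the length slope as covariate, and the histone mRNA processing genes called with stimulation at 1 % O2 from 5 to 8 without replicate 1 of 1 % CTRL. The causes were not tested. No single histone gene reversed, and of their values under the alternatives 719 kept their side of the threshold, 27 gained a call and 14 lost one. Same-numbered replicates did not deviate together (2 of 36 pairs with r above 0.1, 9 best with their own number, range -0.15 to 0.15), and with the replicate block the counts were 9, 11, 8, 10 and 3 for hypoxia at rest, stimulation at 5 % O2, hypoxia in stimulated myotubes, stimulation at 1 % O2 and the interaction. Counts near or under 10 per library limit Hist1h2bh, Hist1h2br and Hist1h2bq, and in 1 % CTRL also Hist1h3d, Hist2h2bb and Hist1h2bg. In that group Hist1h3d had 4 to 12 reads per library and Hist2h2bb 6 to 15, and Hist1h2bg was at 0 in 2 libraries.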
